A study of Rattus norvegicus with 3 samples.

Results

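Mitochondrial ribosomal proteins were taken as the entries of the RNA-seq table whose symbol starts with MRPL or MRPS and a number. The rule found 75 genes among 12771 entries, 48 with an MRPL symbol (large subunit) and 27 with an MRPS symbol (small subunit). Of 78 symbols of the family looked for, 3 (MRPL39, MRPS6 and MRPS10) had no entry and were not analysed here. RNA was measured in the supernatant left after spinal cord was digested with a cold active protease and its cells were pelleted, a fraction prepared to enrich axonal RNA. The rats were Sprague Dawley females aged 3 months, operated on at T9. The No-SCI rats had only the laminectomy and the SCI rats also a moderate to severe contusion, and tissue just rostral to the injury was taken at T8 after 24 h. All samples thus share the laminectomy and the digestion, and 2 No-SCI samples and 1 SCI sample carry labels, whereas the methods state 2 animals per condition. The authors' table holds a single Cuffdiff estimate per group and gene, as FPKM, a fragment count scaled to transcript length and library size. Neither single libraries nor counts are in it, so the depth behind each value and its spread between animals are unknown. The table's own p-values and q-values were not used, and no error, n or test is given here for any difference. Whether a difference exceeds the spread between replicates could therefore not be tested, and "higher" or "lower" below describes these group values alone. In such bulk samples, a change in the mix of cell fragments cannot be told apart from a change in RNA per cell.

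The mitochondrial ribosome translates the few proteins that mitochondrial DNA encodes, all of them parts of the respiratory chain and ATP synthase. Its ribosomal RNAs come from mitochondrial DNA, but every one of its proteins is encoded in the nucleus, made on cytosolic ribosomes and imported. The large subunit joins amino acids and holds the exit tunnel, and the small subunit binds the mRNA and reads its codons. Part of the proteins have a counterpart in the bacterial ribosome and the others were added in the mitochondrial lineage. In neurons the particle is found wherever mitochondria are, axons included.

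Start regions are shown first, because the members are nuclear genes whose transcripts come from many separate promoters. RefSeq promoters on GRCr8, running from 250 bases before to 50 bases after the start, matched 60 of the 75 members with 62 sequences. In the lines that follow, the 100 bases before the start are given for the most abundant members (MRPL27 and MRPL36), for carriers of the NRF1 core (MRPL17 and MRPL32) or the ETS letters (MRPL52 and MRPL53), and for members that were lower after SCI (MRPL33, MRPS27, MRPS2 and MRPL47). Capitals mark matches, on either strand, to a core of the NRF1 motif (GCATGCGC), an ETS motif (CCGGAAG) or a YY1 motif (AANATGGCG). NRF1 and the ETS factor GABPA are known regulators of nuclear genes for mitochondrial proteins.
MRPL27 (chr10:80092245-80092344, plus strand): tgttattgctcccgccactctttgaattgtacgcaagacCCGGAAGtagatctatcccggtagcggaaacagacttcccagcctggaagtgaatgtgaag
MRPL36 (chr1:31795122-31795221, minus strand): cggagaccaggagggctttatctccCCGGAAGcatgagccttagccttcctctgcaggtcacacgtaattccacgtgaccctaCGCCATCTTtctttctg
MRPL17 (chr1:169575700-169575799, minus strand): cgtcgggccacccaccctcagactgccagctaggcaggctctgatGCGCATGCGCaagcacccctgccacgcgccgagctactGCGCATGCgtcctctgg
MRPL32 (chr17:55260551-55260650, plus strand): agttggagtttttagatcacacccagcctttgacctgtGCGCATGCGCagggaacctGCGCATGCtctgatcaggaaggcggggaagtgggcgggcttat
MRPL52 (chr15:31852836-31852935, plus strand): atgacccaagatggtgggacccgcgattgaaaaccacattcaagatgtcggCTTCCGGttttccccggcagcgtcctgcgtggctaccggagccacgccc
MRPL53 (chr4:117172943-117173042, plus strand): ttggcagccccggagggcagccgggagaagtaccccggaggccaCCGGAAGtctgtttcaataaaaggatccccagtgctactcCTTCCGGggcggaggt
MRPL33 (chr6:30553988-30554087, minus strand): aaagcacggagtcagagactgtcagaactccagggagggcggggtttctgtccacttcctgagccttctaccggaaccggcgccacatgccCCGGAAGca
MRPS27 (chr2:32474104-32474203, plus strand): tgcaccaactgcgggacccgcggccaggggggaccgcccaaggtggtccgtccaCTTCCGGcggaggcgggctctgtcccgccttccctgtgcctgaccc
MRPS2 (chr3:32200977-32201076, plus strand): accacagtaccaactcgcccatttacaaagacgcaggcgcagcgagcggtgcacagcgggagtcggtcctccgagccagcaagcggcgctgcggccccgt
MRPL47 (chr2:117447362-117447461, minus strand): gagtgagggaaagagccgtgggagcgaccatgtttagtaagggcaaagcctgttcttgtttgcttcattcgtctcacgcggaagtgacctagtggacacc

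The ETS letters stood in 20 of the 62 member promoters (32.3%), against 16.7% of 10771 promoters of genes in the table and 8.75% of all 33469 promoters. The YY1 letters stood in 12 (19.4%), against 5.74% of promoters of genes in the table and 3.01% of all. The NRF1 core stood in 5 (8.06%), against 4.99% and 2.47%. Large and small subunit promoters held the ETS letters in similar shares, 31.7% of 41 MRPL and 33.3% of 21 MRPS promoters. No match to any of these 3 motifs overlapped another of the 3, and 31 of the 62 promoters (50%) held at least 1 of them, against 24.8% of promoters of genes in the table and 13.0% of all. Of the 7 motifs searched, the GC box (GGGCGG) was less frequent in member promoters (48.4%) than in those of genes in the table (60.3%). It was more frequent there than in all promoters (33.1%). The E-box (CACGTG) stood in 11.3%, against 9.03% of promoters of genes in the table and 6.42% of all. The CCAAT box stood in 43.5%, against 37.6% and 37.5%. The TATA box (TATAAA) stood in 12.9%, against 7.42% and 14.2%, so its direction also depended on the background. The 20 genes with the ETS letters had a median log2 difference (SCI minus No-SCI) of 0.33, and the 40 without them 0.24. For the YY1 letters these medians were 0.28 and 0.28, and for the NRF1 core 0.43 in 5 genes with it and 0.23 in 55 without. The ETS letters stood in members that differed in either direction, as in MRPS27 and MRPL33, which were lower after SCI, and MRPL27 and MRPL52, which were higher. A match describes the letters alone.

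Transcripts of the mitochondrial ribosome were well above the typical gene in the supernatant. In No-SCI 67 of the 75 members lay above the median of all entries (17.2 FPKM), and 50 above their upper quartile (53.9 FPKM). The median member was at 67.0 FPKM in No-SCI and 82.4 after SCI, whereas the median of all entries was 17.2 and 15.6 FPKM. The number of members among the top 10% of entries was 16 in No-SCI and 22 after SCI. Members differed widely in level, from 2.38 FPKM for MRPL33 to 1042 FPKM for MRPL27 in No-SCI, a ratio of 438. The 10 most abundant members held 49.6% of the summed FPKM of the family in No-SCI and 54.3% after SCI.

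The large subunit was led by MRPL27, the counterpart of a bacterial protein near the peptidyl transferase centre, at 1042 FPKM in No-SCI against 1445 after SCI. MRPL36, a small protein with a bacterial counterpart, had 866 and 1088 FPKM. MRPL17, near the exit tunnel, had 460 and 681 FPKM. These were followed by MRPL14 with 355 and 537 FPKM and MRPL52 with 291 and 479 FPKM, so that all 5 leading MRPL genes were higher after SCI. Among the small subunit genes, MRPS33 led in No-SCI with 482 FPKM and had 553 FPKM after SCI. MRPS12, the counterpart of the bacterial decoding protein S12, had 440 FPKM in No-SCI and 848 after SCI and so took the lead. MRPS21 had 403 and 550 FPKM, MRPS14 321 and 452 FPKM, and MRPS17 279 and 323 FPKM. All 5 were higher after SCI, and the order of the 75 members by level was nearly kept between the groups, with a Spearman correlation of 0.96 across genes, which share the same libraries.

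At the lower end, MRPL33 had 2.38 FPKM in No-SCI and 1.63 after SCI, close to 1, the lowest value in the table. MRPL38, in the central protuberance, had 8.08 and 5.54 FPKM. MRPL49 had 10.2 and 10.5 FPKM, MRPL2, a protein of the peptidyl transferase region, 12.6 and 19.2 FPKM, and MRPL40 15.1 and 13.2 FPKM. Of these only MRPL2 was 1.3-fold or more higher after SCI. In the small subunit MRPS31 was lowest, with 8.47 and 7.81 FPKM. MRPS22 had 10.3 and 10.03 FPKM, MRPS9 15.0 and 14.5 FPKM, MRPS5 19.5 and 24.7 FPKM, and MRPS15 20.7 and 25.3 FPKM. No small subunit member came as near the floor of the table as MRPL33, and no member had a value of exactly 1.

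**Figure D1:**
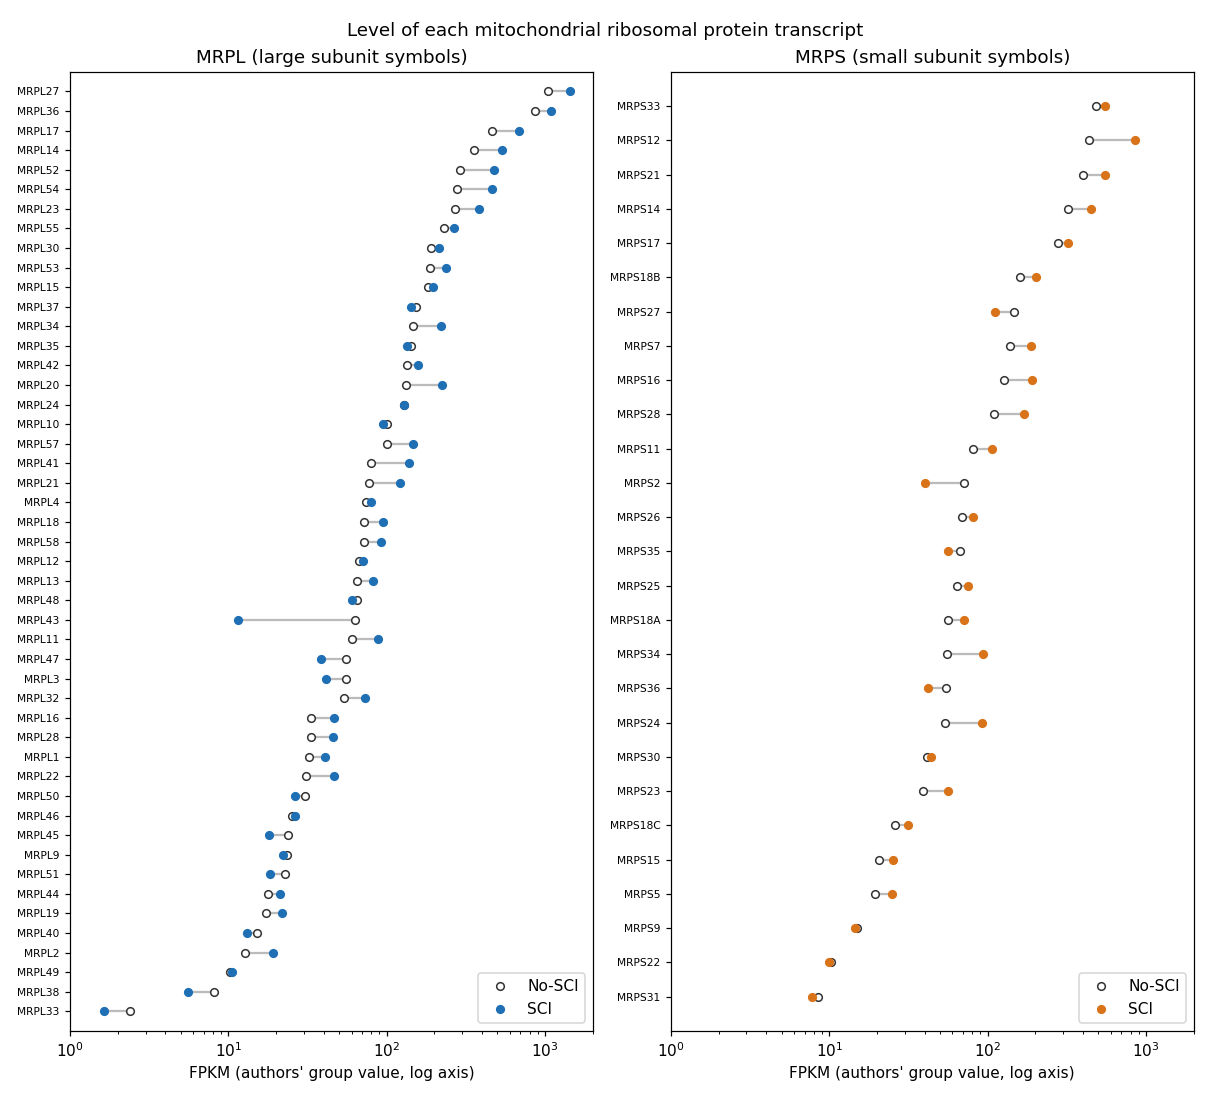
Level of each of the 75 members in No-SCI (open circles) and after SCI (filled circles), in the authors' FPKM on a log axis, with MRPL genes on the left and MRPS genes on the right, ordered by the No-SCI level. No error bars can be drawn, since the table holds 1 value per group. Most filled circles lie to the right of the open ones, and MRPL43 is displaced far to the left, from 63.2 to 11.5 FPKM.

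After SCI most members were higher than in No-SCI. Of the 75, 54 had a larger SCI than No-SCI value and 21 a smaller one, and the median log2 difference was 0.29, against −0.12 over all entries. Past a fold of 1.3, the minimum the study uses, 28 members (37.3%) were higher, against 24.6% of all entries, and 9 (12%) were lower, against 35.7% of all entries. The other 38 lay within 1.3-fold. At 1.5-fold 12 of the 75 members were higher, a share no larger than the 16.9% of all entries. Only 2 were lower, where 26.3% of all entries were. An excess of higher members was thus seen at 1.3-fold and not at 1.5-fold. At 2-fold no member was higher, against 7.96% of all entries, and 1, MRPL43, was lower, against 12.1%. The family thus had a shift of moderate size in many genes and few large differences. Summed over the members, FPKM went from 9951 in No-SCI to 13072 after SCI, a ratio of 1.31.

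The baseline of the table bears on the counts. Centring the median of all entries at 0 adds 0.12 to every log2 difference, and scaling to the same upper quartile adds 0.10. Relative to the median of all entries, 61 of the 75 members were higher, and 7 members with small negative differences (MRPL9, MRPL10, MRPL35, MRPL37, MRPL48, MRPS9 and MRPS22) change sign. With this centring 39 members were higher and 5 lower by 1.3-fold, in place of 28 and 9. The shares of all entries past 1.3-fold shift with it too and are not given here. The centred counts therefore cannot be set against the shares given above. The difference also varied with the level of the member. The 17 members under 30 FPKM in No-SCI had a median log2 difference of −0.04, the 30 from 30 to 100 FPKM one of 0.34, and the 28 at 100 FPKM or more one of 0.39. All entries in the same ranges had medians of −0.10, −0.17 and −0.09. Across the 75 members the Spearman correlation of the No-SCI level with the log2 difference was 0.37, and across all entries it was −0.13. With the span of the gene on GRCr8 it was −0.37 across the members and −0.26 across 11987 entries with a span. These are descriptions across genes of the same libraries, and the level enters both axes of the first.

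**Figure D2:**
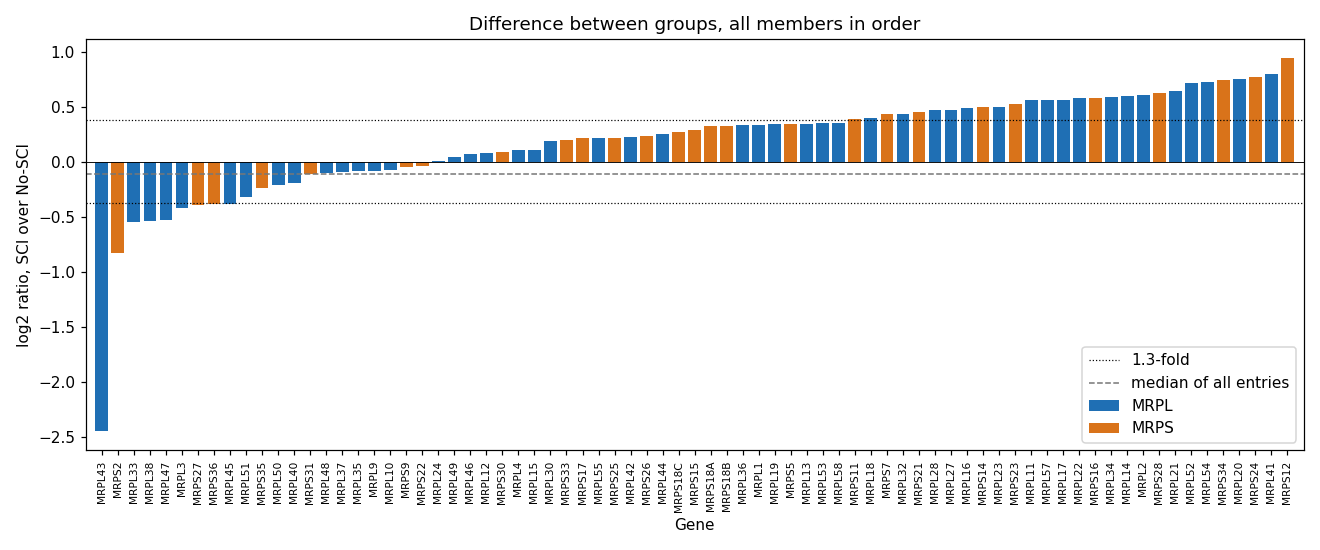
Log2 difference (SCI minus No-SCI) for each of the 75 members, in order, with MRPL genes in blue and MRPS genes in orange. Dotted lines mark 1.3-fold, the dashed line marks the median of all entries, −0.12. The bars of both colours are mixed along the order, 28 members exceed the upper dotted line, and MRPL43 at −2.45 stands apart from MRPS2 at −0.83.

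The large and the small subunit differed little. The 48 MRPL genes had a median log2 difference of 0.29 with quartiles of −0.09 and 0.51, and the 27 MRPS genes had a median of 0.29 with quartiles of 0.03 and 0.47. By 1.3-fold, 18 MRPL genes (37.5%) were higher and 6 (12.5%) lower, and 10 MRPS genes (37.04%) were higher and 3 (11.1%) lower. The medians differed by 0.0014, and the sign of so small a difference turned under other choices. The median levels were alike too, 69.5 FPKM for MRPL and 67.0 FPKM for MRPS in No-SCI, and 85.5 and 80.9 FPKM after SCI. The summed FPKM of MRPL genes was 1.96 times that of MRPS genes in No-SCI and 1.93 times after SCI, so the ratio of the sums was similar in both groups. Symbols do not always give the subunit. MRPS18A and MRPS30 are known as large subunit proteins, and MRPS36 is now known as KGD4, a component of the 2-oxoglutarate dehydrogenase complex. Placed by their position in the particle, 50 large subunit genes had a median log2 difference of 0.29 and 24 small subunit genes one of 0.31. MRPS30 had 41.4 FPKM in No-SCI and 44.05 after SCI, and MRPS36 had 54.8 and 41.9 FPKM, a log2 difference of −0.39.

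Within the large subunit, groups of proteins at different places were described one by one. The stalk that recruits translation factors is built on MRPL10 and MRPL11 and carries copies of MRPL12, with MRPL53 and MRPL54 at its base. MRPL54 went from 280 FPKM in No-SCI to 462 after SCI, a log2 difference of 0.72, and MRPL11 from 60.1 to 88.6 FPKM, a log2 difference of 0.56. MRPL53 had 187 and 238 FPKM, a log2 difference of 0.35. MRPL12, which also binds the mitochondrial RNA polymerase, had 66.8 and 70.6 FPKM, and MRPL10 had 100.1 and 94.7 FPKM. Of these 5 genes 2 were higher by 1.3-fold and none lower. The other mobile arm, the L1 stalk, includes MRPL1 with 32.3 and 40.6 FPKM and, at its foot, MRPL9 with 23.4 and 22.05 FPKM, both within 1.3-fold.

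The central protuberance, which touches the small subunit and the tRNAs, was mixed. MRPL18, at 72.2 FPKM in No-SCI against 95.4 after SCI, was its single member higher by 1.3-fold, and MRPL38 the single one lower. MRPL58, a peptidyl-tRNA hydrolase that rescues stalled ribosomes and is built into the particle, had 72.2 and 92.3 FPKM, a log2 difference of 0.35. MRPL46 (25.2 and 26.5 FPKM), MRPL48 (64.9 and 60.3 FPKM) and MRPL40 lay within 1.3-fold. The median log2 difference of these 6 genes was −0.02, and it is 0.10 after centring. Around the exit tunnel, 3 of 6 genes were higher by 1.3-fold and 2 lower. MRPL22 went from 30.9 to 46.2 FPKM, a log2 difference of 0.58, MRPL17 had a log2 difference of 0.56 and MRPL23 went from 270.2 to 381 FPKM, a log2 difference of 0.50. In the other direction, MRPL47, the counterpart of bacterial L29, went from 55.4 to 38.3 FPKM, a log2 difference of −0.53, and MRPL45, which attaches the ribosome to the inner membrane, from 23.7 to 18.2 FPKM, a log2 difference of −0.39. MRPL24, at the same site, had 128.1 and 128.5 FPKM. Neighbours in the central protuberance and around the exit tunnel thus did not all share a direction.

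In the small subunit, the proteins at the mRNA entry and the decoding site held the largest difference upward of all members. MRPS12 had an SCI value 1.93 times that of No-SCI, a log2 difference of 0.95 at percentile 91.4 of all entries. MRPS24, the counterpart of bacterial S3, went from 54.1 to 91.9 FPKM, a log2 difference of 0.77, and MRPS5 had a log2 difference of 0.34. PTCD3, a pentatricopeptide repeat protein at the mRNA entry whose symbol is outside the rule, went the other way, from 69.7 to 48.04 FPKM, a log2 difference of −0.54. The S18 family has 3 paralogues in mammals. MRPS18B had 161 FPKM in No-SCI and 201 after SCI, MRPS18A 56.6 and 70.8 FPKM, and MRPS18C 26.2 and 31.6 FPKM. In No-SCI MRPS18B was at 6.13 times the level of MRPS18C, but the log2 differences of the 3, from 0.27 to 0.33, were close to each other and to the median of the family. All 3 lay within 1.3-fold.

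The members that differed most upward after MRPS12 came from both subunits. MRPL41 went from 79.7 FPKM in No-SCI to 138 after SCI, a log2 difference of 0.80. MRPL20, the counterpart of a bacterial assembly protein, went from 133 to 225 FPKM, a log2 difference of 0.75. MRPS34 went from 55.5 to 93.1 FPKM, also a log2 difference of 0.75. With MRPS12 these lay between percentiles 87.9 and 91.4 of all entries, and none reached 2-fold. MRPL52 and MRPL54 followed with 0.72 each, then MRPL21 with 0.64, from 77.5 to 121 FPKM, and MRPS28, the counterpart of bacterial S1, with 0.62, from 110.2 to 170 FPKM. MRPL2 had a log2 difference of 0.61.

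Downward, MRPL43 stood alone. It went from 63.2 FPKM in No-SCI to 11.5 after SCI, which is 5.48-fold lower and a log2 difference of −2.45, at percentile 0.470 of all entries. In No-SCI it ranked 43 among the 75 members and after SCI 70. The next member, MRPS2, the counterpart of bacterial S2, went from 71.5 to 40.1 FPKM, a log2 difference of −0.83, so 1.62 log2 units separate the lowest member from the next. The SCI values of MRPL43 and MRPS2, though not their No-SCI values, are printed to 7 significant digits, where Cuffdiff prints 6. At least 1 of both values has over 6 digits in 23 of the 75 members (30.7%) and 58.6% of all entries, and such values may be sums over several transcripts or loci. The gene model of MRPL43 overlaps that of TWNK, the mitochondrial DNA helicase, on GRCr8, and TWNK itself had 37.4 FPKM in No-SCI and 36.04 after SCI. Whether reads of these genes were shared was not tested. These 23 members had a median log2 difference of 0.11, and the 52 with at most 6 one of 0.35, with 25 of the 52 higher and 4 lower by 1.3-fold. The other members lower by 1.3-fold were MRPL33 (log2 difference −0.55), MRPL38 (−0.54), MRPL47, MRPL3 (from 55.4 to 41.2 FPKM, −0.42), MRPS27 (from 147 to 111 FPKM, −0.40), MRPS36 and MRPL45. MRPL51 completed the 10 lowest with 22.8 and 18.3 FPKM, within 1.3-fold. MRPL3 is the counterpart of bacterial L3, and MRPS27 is a pentatricopeptide repeat protein found in mitochondria alone.

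Copies of a gene can share reads with it. RefSeq lists a pseudogene or a gene named as a like copy for 23 of the 75 members, among them MRPL41, MRPL17 and MRPL30. These 23 had a median log2 difference of 0.27 and the 52 without such a copy one of 0.31. The models of 19 members overlap another gene, among them MRPL27, MRPL36, MRPS2, MRPL43 and MRPS12, the member with the largest difference upward. The median log2 difference of these 19 was 0.04, against 0.33 for the 56 that overlap none. By 1.3-fold 7 of these 19 (36.8%) were higher and 3 (15.8%) lower, and 21 of the 56 (37.5%) were higher and 6 (10.7%) lower. Of all entries 24.6% were higher and 35.7% lower. The shares higher were thus alike with and without an overlap, although the medians were not. The part of copies and overlaps in the values was not tested.

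Proteins with a bacterial counterpart were set beside those found in mitochondria alone, a property that the choice of genes did not use. The 46 with a counterpart had a median log2 difference of 0.34, and 22 of them (47.8%) were higher and 4 (8.70%) lower by 1.3-fold. The 27 without had a median of 0.07, with 6 (22.2%) higher and 4 (14.8%) lower. Of all entries 24.6% were higher and 35.7% lower, so the share higher in these 27 was near that of all entries. The order of the classes was the same for MRPL and for MRPS symbols. Medians were 0.34 against 0.04 in the 30 and 17 MRPL genes and 0.37 against 0.14 in the 16 and 10 MRPS genes. The ranges overlapped widely, since MRPL41, MRPS34 and MRPL52 are without a counterpart and among the highest, and MRPS2 has one and is among the lowest. Median levels in No-SCI were 75.9 FPKM with and 63.2 FPKM without a counterpart. MRPL58 and MRPS36 belong to neither class. Genes of one particle are not replicates, and no test of this difference was made.

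**Figure D3:**
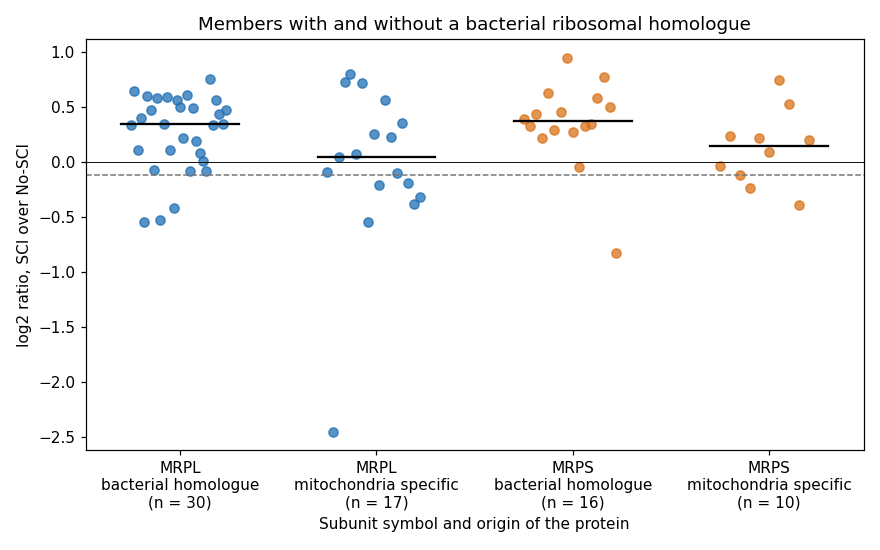
Log2 difference (SCI minus No-SCI) of members with a bacterial ribosomal counterpart and of those specific to mitochondria, for MRPL and MRPS symbols, each point a gene and each black line the median of its group. The dashed line is the median of all entries. The medians of 0.34 and 0.37 with a counterpart lie above those of 0.04 and 0.14 without, and the points overlap.

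Several members start back to back with another gene, on the opposite strand and within 1000 bases on GRCr8, so that the pair shares its start region. The RefSeq promoters give 18 such members, and in 1 case both genes are members of opposite subunits. MRPL46 and MRPS11 start 234 bases apart, and the 233 bases between them are shown on the strand of MRPS11, where none of the 3 motifs in capitals above was found. The YY1 letters counted for the MRPL46 promoter lie outside these bases.
MRPL46 and MRPS11 (chr1:142117031-142117263, plus strand): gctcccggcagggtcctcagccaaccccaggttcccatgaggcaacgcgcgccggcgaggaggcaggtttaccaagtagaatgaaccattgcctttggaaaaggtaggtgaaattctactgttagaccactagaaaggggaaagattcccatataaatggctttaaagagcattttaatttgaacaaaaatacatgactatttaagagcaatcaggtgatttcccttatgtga

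MRPS11, of the small subunit, went from 81.1 to 106 FPKM, a log2 difference of 0.39, while MRPL46 had a log2 difference of 0.07. The other 14 pairs with both genes in the table joined a member to a gene outside the family. Their members had a median log2 difference of 0.30 and their neighbours one of 0.13. Both genes were above 0 in 6 pairs and below 0 in 2, and the signs were opposite in 6. The member had the larger difference in 8 pairs and the neighbour in 6. MRPL27 starts 44 bases from EME1, a subunit of a DNA endonuclease, which went from 3.38 to 10.2 FPKM, a log2 difference of 1.60. The gene models of MRPL27 and EME1 overlap, and MRPL27 had 1042 FPKM in No-SCI and 1445 after SCI. Whether reads were shared in such pairs was not tested. MRPL49 starts 186 bases from FAU, the gene of a cytosolic ribosomal protein fused to a ubiquitin-like protein, which went from 973 to 1650 FPKM, a log2 difference of 0.76, whereas MRPL49 had 0.04. MRPL47 starts 244 bases from NDUFB5, a subunit of respiratory complex I, with 208 and 226 FPKM, and their gene models overlap too. MRPS27 starts 91 bases from PTCD2, which went from 8.26 to 13.9 FPKM. Pairs that start back to back thus included both equal and opposite signs. SARS2, the mitochondrial seryl-tRNA synthetase that lies beside MRPS12, had 7.06 FPKM in No-SCI against 4.57 after SCI, a log2 difference of −0.63, opposite to that of MRPS12.

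**Figure D4:**
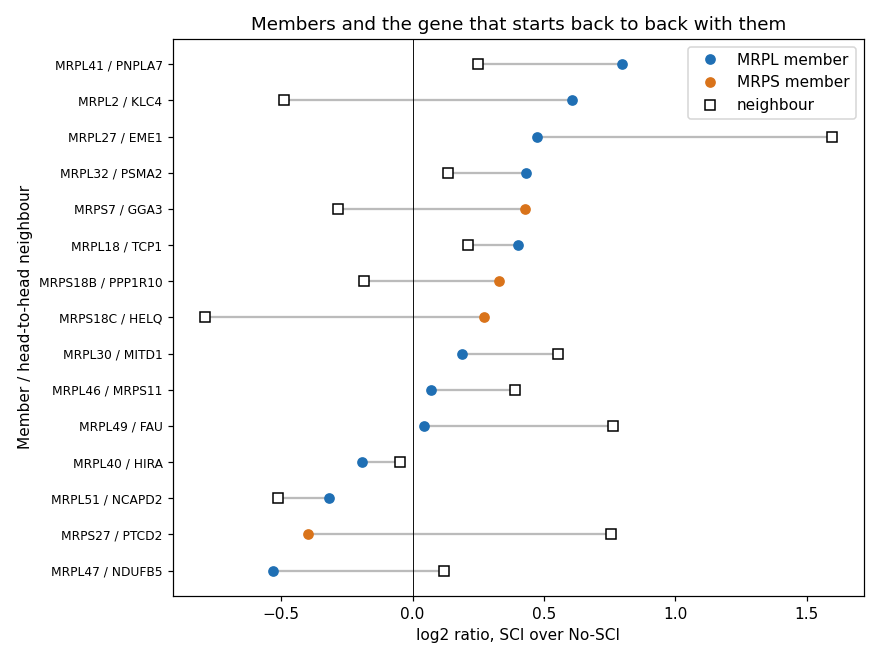
Log2 difference (SCI minus No-SCI) of 15 members (filled circles, MRPL in blue and MRPS in orange) and of the gene that starts back to back with each (open squares), joined by a grey line, with MRPS11 drawn as the neighbour of MRPL46. Lines that cross 0 mark the 6 pairs of opposite sign. EME1, whose gene model overlaps that of the far more abundant MRPL27, has the largest ratio at 1.60.

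Proteins of the particle whose symbols lack MRPL or MRPS were mostly higher after SCI as well. AURKAIP1, a small subunit protein, went from 645 to 957 FPKM, a log2 difference of 0.57, and CHCHD1, also of the small subunit, from 85.2 to 128 FPKM, a log2 difference of 0.59. DAP3, a GTP-binding protein of the small subunit, went from 70.8 to 96.2 FPKM, a log2 difference of 0.44. GADD45GIP1, of the large subunit, went from 61.1 to 80.5 FPKM, a log2 difference of 0.40. With PTCD3, 4 of these 5 genes were higher and 1 lower by 1.3-fold. MRPL58, once named ICT1, is counted with the members.

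The genes that assemble, drive and regulate the mitochondrial ribosome had medians near that of all entries, −0.12. Smaller shares of them were higher by 1.3-fold than the 24.6% of all entries, of which 35.7% were lower. All 24 listed assembly factors had an entry, with a median log2 difference of −0.14, 1 (4.17%) higher and 7 (29.2%) lower by 1.3-fold. FASTKD2, an RNA-binding protein of large subunit assembly, went from 13.2 to 5.52 FPKM, a log2 difference of −1.25, and ERAL1, a chaperone of the small subunit ribosomal RNA, from 8.30 to 3.90 FPKM, a log2 difference of −1.09. These were the 2 assembly factors past 2-fold. MALSU1, which holds the subunits apart during assembly and binds MRPL14, was the single one higher, from 36.0 to 55.6 FPKM. Of 17 mitochondrial translation factors, 16 had an entry, with a median of −0.13, 2 (12.5%) higher and 4 (25%) lower by 1.3-fold. The largest differences were those of GFM2, a recycling factor, at −0.98 (21.6 to 10.98 FPKM) and of MTRF1L, a release factor, at 0.81 (8.23 to 14.4 FPKM). Neither reached 2-fold.

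The 13 genes of mitochondrial DNA transcription and maintenance had a median of −0.25, 1 (7.69%) higher and 5 (38.5%) lower by 1.3-fold, where 35.7% of all entries were lower. Among these, SSBP1, which coats single-stranded mitochondrial DNA, was at 0.58 (144 to 215 FPKM) and POLG, the polymerase, at −0.83 (19.2 to 10.8 FPKM). Of 10 nuclear regulators, 9 had an entry, with a median of −0.09, 1 (11.1%) higher and 3 (33.3%) lower by 1.3-fold. After centring on all entries, the medians of these 4 lists, in the order given, were −0.022, −0.012, −0.13 and 0.029, against 0.41 for the members. PPARGC1A, a coactivator of mitochondrial biogenesis, went from 16.7 to 2.92 FPKM, a log2 difference of −2.52, and was the single regulator past 2-fold. The 15 genes of mitochondrial DNA itself, ribosomal RNAs included, were not analysed here.

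A pair of other large gene sets had medians above 0 as well. The 90 cytosolic ribosomal protein genes had a median log2 difference of 0.64, with 74 (82.2%) higher and 0 lower by 1.3-fold. Of these 90, 81 lay above the median of the mitochondrial family, and the mitochondrial median less the cytosolic one was −0.35. The 91 nuclear genes of respiratory chain and ATP synthase subunits had a median of 0.23. By 1.3-fold 27 of these (29.7%) were higher and 10 (10.99%) lower, against 24.6% and 35.7% of all entries. The share higher in this set was near that of all entries, and the share lower was well below it. The mitochondrial ribosomal proteins thus lay between the 2 sets in their median, and nearer to the respiratory chain.

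**Figure D5:**
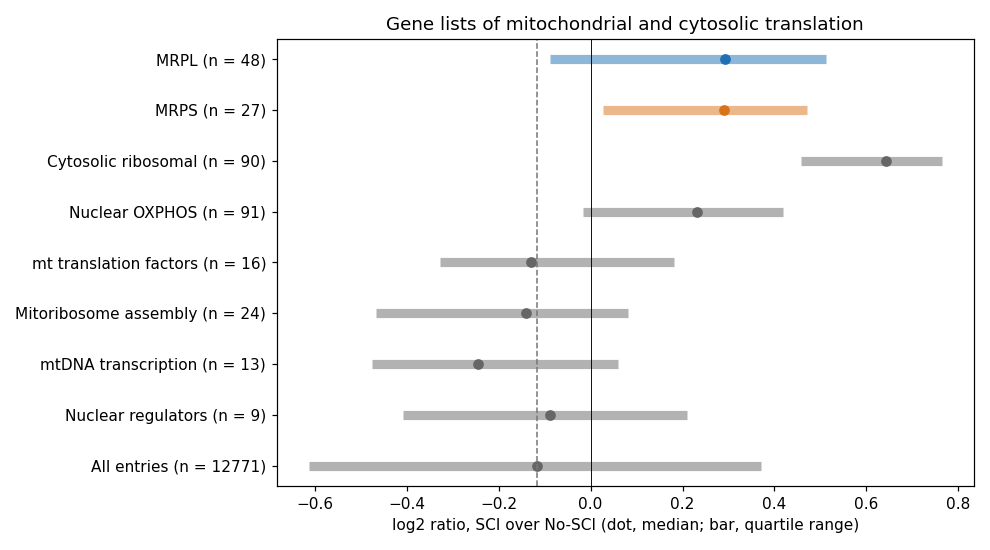
Median (dot) and quartile range (bar) of the log2 difference (SCI minus No-SCI) for MRPL and MRPS genes, cytosolic ribosomal proteins, nuclear OXPHOS (respiratory chain and ATP synthase) subunits, 4 lists of mitochondrial gene expression and all entries, with the number of genes in brackets. The dashed line is the median of all entries. The MRPL and MRPS medians, both 0.29, lie to the right of the 4 lists of factors and regulators, which have medians from −0.25 to −0.09.

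Markers of cell types of the cord, of blood and of skeletal muscle, which is not part of the cord, differed between the groups as well. In the oligodendrocyte list 7 of 8 genes had an entry, all 7 were lower by 1.3-fold, and their summed FPKM went from 51897 to 29872, with MBP without an entry. MOBP, with 44200 and 27648 FPKM, made up most of the oligodendrocyte sum. In the neuronal list 8 of 10 had an entry, 4 were lower and 0 higher, the median log2 difference was −0.57 and the sum went from 1770 to 1650 FPKM. GAP43, with 1275 and 1406 FPKM, made up most of that sum. Of 8 astrocyte genes 5 had an entry, 3 of them lower, with a median of −1.01 and sums of 16440 and 17483 FPKM, and GFAP, AQP4 and SLC1A3 had none. APOE (10448 and 11804 FPKM) and GLUL (5858 and 5624 FPKM) made up nearly all of the astrocyte sum. Of 8 microglia and macrophage genes 7 had an entry, 2 higher and 3 lower, with sums of 1006 and 1028 FPKM. All 6 fibroblast genes were higher, from a sum of 41.3 to 224 FPKM, and all 6 skeletal muscle genes lower, from 382 to 29.1 FPKM. DCN, with 15.1 and 156 FPKM, made up most of the fibroblast sum after SCI. In No-SCI COL1A1 (1.87 FPKM), COL1A2 (2.12 FPKM), COL3A1 (2.32 FPKM) and the muscle gene MYH4 (1.85 FPKM) were near the floor of 1. Of 6 endothelial genes 4 had an entry, 2 higher, with sums of 24.1 and 30.1 FPKM. Of 6 blood genes 3 had an entry, 2 higher, with sums of 537 and 605 FPKM, most of it from HBB with 490 and 464 FPKM. The part of these cell types in the values of the mitochondrial ribosomal proteins was not tested.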

How the data were processed

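Stranded total RNA libraries were made from the protease-treated supernatant after removal of ribosomal RNA. Per the methods and the submitters' processing notes, the authors thinned every library to the read number of the smallest, aligned with STAR 2.5.4b to rn6 and used Cuffdiff of cufflinks 1.3.0 with upper quartile normalization. The FPKM values deposited by the authors are group estimates, 1 for No-SCI and 1 for SCI. The table also holds the authors' own comparison, deposited as a p-value and q-value, a fold change and a log2 fold change for each entry, and these columns were not used. No value deposited lies below 1, and 18 No-SCI and 37 SCI values equal 1, so a constant may have been added. All measurement columns carried a group, and there were no counts, so depth and precision are unknown.

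SCI less No-SCI on the log2 scale was computed with no pseudocount, with medians, quartiles, percentiles and counts past folds of 1.3, 1.5 and 2. Of the 13 symbols with 2 entries, lists used the more abundant entry. Named members are the 5 highest and 5 lowest of each subunit by No-SCI level, the 10 largest differences each way, members past 2-fold and members of the structural groups, and of other lists the genes past 2-fold or the largest each way. Others, such as head-to-head neighbours, genes with copies or overlaps, the 7 that change sign and the sequences and motifs shown, were chosen after their values were seen. The members and lists were chosen with earlier results of these data known. Names, neighbours, copies and overlaps came from RefSeq on GRCr8, which matched 74 members by symbol and 1 by synonym, and rn6 coordinates are not given. The counting steps were tested on simulated data. Python 3.11.15, numpy 2.4.6, pandas 2.3.3 and matplotlib 3.10.9 were used.

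The alternatives were pseudocounts of 1 and 0.1, subtraction of 1, 3 scalings, a mean of at least 5 FPKM, entries of at most 6 digits, subunits by place, means for medians and other folds. Leaving out MRPL43 was added after the data were seen.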

Additional observations from a re-analysis of the deposited data

How the results depend on the processing

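With no spread between replicates to judge by, a median was taken as unmoved within 0.1 log2 units, and a count or level within 1.5 times. Under 58 of 78 combinations of a result and an alternative the value stayed within these bounds with its sign. Centring the median of all entries at 0 moved the median log2 difference to 0.41 for all members, 0.41 for MRPL and 0.41 for MRPS and the number lower by 1.3-fold to 5. Scaling to the same upper quartile moved the same values to 0.39, 0.39, 0.39 and 5. Means in place of medians gave 0.19 for all members and 0.16 for MRPL, and levels in No-SCI of 137 FPKM for MRPL and 125 FPKM for MRPS. Entries of at most 6 digits left 4 members lower. A fold of 1.5 gave 12 higher and 2 lower, and a fold of 2 gave 0 higher and 1 lower, as a stricter minimum must. The difference of MRPL from MRPS in median log2 difference, 0.0014, reversed to −0.0048 with 1 subtracted, to −0.020 with subunits by place and to −0.075 with means. The cause of these shifts was not tested beyond what each choice does by its construction. Without MRPL43, a choice made after the data were seen, the median was 0.31 for all members and 0.33 for MRPL. No sample could be left out, because the table has 1 value per group. No paired analysis was possible because the table has no value per sample. MRPL33, near the floor of 1, is limited most by an added constant.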
